A study of Rattus norvegicus with 6 samples.

Results

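Maternal-effect genes are transcribed in the oocyte and their products are needed by the embryo after fertilization. The genes described here were chosen by name for this role, as Nlrp5, Ooep, Padi6, Tle6, Khdc3, Zar1, Nlrp14, Npm2 and Dppa3, and a gene was kept where a probe carried a RefSeq accession with its symbol. Of the 9 genes, 5 were kept, namely Padi6, Khdc3, Zar1, Npm2 and Dppa3, out of 15154 genes named in this way. They were read by 6 of 30367 probes, since Dppa3 had 2. Nlrp5, Ooep, Tle6 and Nlrp14 were not analysed here.

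The study asked how an immune challenge in the first days of life alters the developing rat ovary. Wistar pups received lipopolysaccharide (LPS, a component of the bacterial outer membrane) from Salmonella enterica by intraperitoneal injection, at 0.05 mg/kg on postnatal days (PNDs) 3 and 5, while controls received the same volume of saline. Whole ovaries were taken on PND 7. RNA amplified from their total RNA was labelled and hybridized to single-colour Agilent arrays, with 3 arrays for LPS and 3 for saline. Each array is named by its treatment and replicate number (LPS 1 to LPS 3 and saline 1 to saline 3), and the animals and litters behind each array were not used here, so that p-values measure only the spread between these arrays.

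The neonatal rat ovary holds primordial follicles and the first follicles to begin growing, and a growing oocyte stores large amounts of messenger RNA and protein that the embryo draws on until its own genome is active. Some of these products assemble under the oocyte's cortex into the subcortical maternal complex and onto fibrous cytoplasmic lattices. Others bind stored messenger RNA, or prepare the chromatin that sperm and egg bring to the zygote.

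Several arrays stood apart in ways that the treatments do not describe. Saline 2 and saline 3 carried transcripts of the adrenal gland. The summed signal of 6 of 7 adrenal medulla markers, in multiples of the 75th percentile signal of the array, was 4.81, 3.11 and 2.51 on LPS 1, 2 and 3, and 5.08, 79.7 and 52.2 on saline 1, 2 and 3. For the 6 of 6 adrenal cortex markers the sums were 1.55, 0.930 and 0.741 on LPS 1, 2 and 3, and 1.25, 163 and 218 on saline 1, 2 and 3. On saline 2 and 3 Pnmt was the brightest of the medulla markers and Cyp21a1 the brightest of the cortex markers. Cyp11b1, Mc2r, Akr1b7, Chga and Chgb were not well above background on the other 4 arrays.

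LPS 1 and saline 1 shared another feature. The summed signal of Foxj1 and Pax8, the 2 of 3 oviduct markers with a probe, was 22.4 and 23.5 multiples of the 75th percentile on LPS 1 and saline 1. On LPS 2, LPS 3, saline 2 and saline 3 it was 11.9, 12.6, 7.97 and 10.4. Foxj1, a regulator of motile cilia, was the brighter of the pair throughout, and both were well above background on all 6 arrays. Their log2 fold changes between LPS and saline were 0.21 for Foxj1 and 0.37 for Pax8. The arrays also differed in their place on the slide. All 6 lay on 1 slide, where LPS 2 and LPS 3 were in 1 row and LPS 1 and the saline arrays in the other, so that only 1 row held both treatments.

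The oocyte itself was well represented. All 8 of 9 oocyte markers with a probe (Zp1, Zp2, Zp3, Gdf9, Bmp15, Nobox, Ddx4 and Dazl) were well above background on all 6 arrays, as were the 6 probes of the maternal-effect genes. No filter on low signal therefore removed any of the 5 genes. Processed signals ranged from 26089 to 132526 for Padi6 and from 654 to 2977 for Zar1 over the 6 arrays.

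None of the 5 genes differed between LPS and saline beyond the spread between arrays. Their log2 fold changes (LPS minus saline, each scaled to the 75th percentile of its array) ran from 0.12 for Padi6 to 0.58 for Npm2, with a median of 0.43 against -0.039 over all probes. All 5 were above 0 on this scale, as were 13602 of 30367 probes. Set against zona pellucida and growth factor genes, 3 of the 5 were below 0, a scaling that also moved the median over all probes to -0.48. Of the 5, 0 met the criterion of a 2-fold change with p below 0.05 before adjustment, which 513 of 30367 probes met, or 1.69%. Over all probes this count was 908 without LPS 1, 262 without LPS 3, 1131 without saline 1 and 250 without saline 2. None had an unadjusted p under 0.05 in limma, which 16.5% of all probes did, and adjusted p-values under 0.05 were found for 0 of the 5 and for 0% of all probes, there and in the methods' t-test. That count of probes was not 0 in every fit, being 290 without saline 1, 411 without LPS 1 and saline 1, 121 when scaled to the zona pellucida and growth factor genes, and 5 when the fit took slide row as a block, with 0 of the 5 genes among them. Scaled to the zona pellucida and growth factor genes, each of the 5 had the same standard error of 0.76. Their p-values there follow the size of the difference and not their own spread, so that fit could not call differences as small as theirs. The LPS and saline arrays overlapped for all 5 genes, whereas 23.4% of the 30364 probes measured on every array had groups with no overlap. As the RNA came from whole ovaries, the number of oocytes, the RNA per oocyte and the share of other cells and tissue cannot be told apart in these values.

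Khdc3 encodes a component of the subcortical maternal complex. Its log2 signal was -2.12, -0.016 and -0.33 on LPS 1, 2 and 3, and -1.72, -1.54 and -0.50 on saline 1, 2 and 3. LPS 1 was the lowest array and LPS 2 and 3 were the highest, with saline 3 close to them. The log2 fold change was 0.43 (standard error 0.61, 95% confidence interval -1.02 to 1.88, adjusted p = 0.883 in limma). The interval thus reaches from a signal of 0.493 times that of saline to 3.68 times. Across the 6 arrays Khdc3 spanned a 4.31-fold range.

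Padi6 encodes a peptidylarginine deiminase family protein that the oocyte requires to form its cytoplasmic lattices. Its log2 signal was 2.94, 4.99 and 4.59 on LPS 1, 2 and 3, and 3.63, 4.03 and 4.52 on saline 1, 2 and 3. The highest and the lowest value were both on LPS arrays, so the saline arrays lay inside the range of the LPS arrays. Group means were 4.17 ± 1.08 (SD, n = 3) for LPS and 4.06 ± 0.45 (SD, n = 3) for saline. The log2 fold change of 0.12 had a standard error of 0.54 (95% confidence interval -1.18 to 1.42, adjusted p = 0.985 in limma).

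Zar1 encodes a zinc finger protein that binds messenger RNA in the oocyte. On LPS 1, 2 and 3 its log2 signal was -2.19, -0.68 and -0.88, and on saline 1, 2 and 3 it was -1.86, -1.79 and -1.47. The saline arrays lay close together, with an SD of 0.21 against 0.82 for LPS, and LPS 1 was below all of them while LPS 2 and 3 were above. Its log2 fold change was 0.46 (standard error 0.41, 95% confidence interval -0.51 to 1.43, adjusted p = 0.736 in limma).

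Npm2 encodes a nuclear chaperone that acts on sperm chromatin and on nucleolar organization in the egg. Its log2 signal was 0.38, 2.44 and 2.11 on LPS 1, 2 and 3, and 0.65, 0.91 and 1.63 on saline 1, 2 and 3. The order of the arrays was the same as for Khdc3, Padi6 and Zar1. The log2 fold change of 0.58 was the largest of the 5 genes and was about as large as its standard error of 0.57 (95% confidence interval -0.77 to 1.93, adjusted p = 0.775 in limma).

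Dppa3, also known as Stella, encodes a protein that shields maternal DNA from demethylation in the zygote. Its brighter probe had a log2 signal of 0.13, 1.14 and 1.19 on LPS 1, 2 and 3, and of 0.48, 0.28 and 0.86 on saline 1, 2 and 3. The other probe had a log2 signal of -1.84, -0.84 and -0.77 on LPS 1, 2 and 3, and of -1.63, -1.85 and -1.12 on saline 1, 2 and 3. On either probe LPS 2 and 3 were highest and saline 3 came next, and the lower 3 arrays were close together. The log2 fold changes were 0.28 (standard error 0.33, adjusted p = 0.840 in limma) and 0.38 (standard error 0.35, adjusted p = 0.751 in limma). The gene table names 3 Dppa3 pseudogenes, and since the probe sequences were not used here, signal from such copies cannot be told apart from that of Dppa3. Dppa3 had the narrowest range of the 5 genes, 2.09-fold on its brighter probe.

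In two-sided exact permutation tests of the 3 LPS against the 3 saline arrays, p was between 0.3 and 0.9 over the 6 probes. The smallest p that 3 arrays against 3 allow is 0.1.

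**Figure D1:**
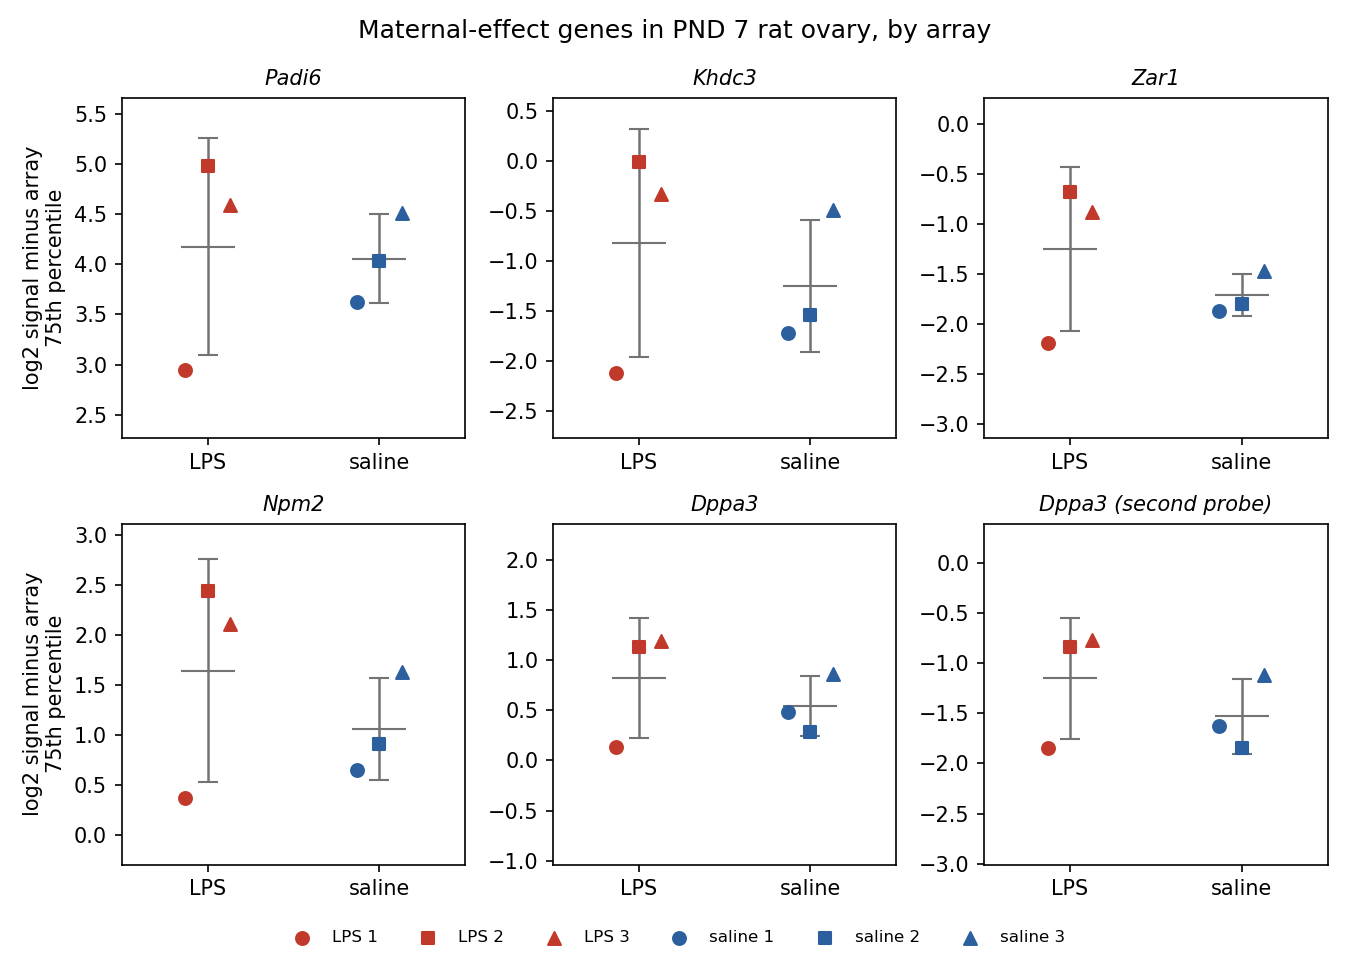
Log2 signal after subtraction of the array's 75th percentile (y axis, panels of equal height in log2 units) on the 3 LPS and 3 saline arrays (x axis) for the 6 probes of maternal-effect genes, with points for arrays, marker shapes for replicate numbers, and grey bars for the mean ± SD (n = 3). LPS 1 lies below LPS 2 and LPS 3 in every panel, and the treatments overlap in each.

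The 5 genes moved together from array to array. With each gene centred on its mean over the 6 arrays, their average log2 signal was -0.90, 0.85 and 0.61 on LPS 1, 2 and 3, and -0.49, -0.35 and 0.28 on saline 1, 2 and 3. LPS 1, saline 1 and saline 2 were the lowest 3 arrays for all 5 genes, and LPS 2 or LPS 3 was the highest. This order was picked out after the values were seen. Of 18093 probes with a signal well above background on every array, 11.5% had the same lowest 3 arrays. The single genes differed little around the shared pattern on LPS 3, where the centred values lay between 0.48 and 0.76, and more on LPS 1, where they lay between -1.17 and -0.55.

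Where a probe was printed in 2 spots, the pair differed by a median of 0.039 and at most 0.15 on the log2 scale over 30 pairs, a measure of noise within an array and not between ovaries. From their lowest to their highest array the 6 probes spanned 1.06 to 2.11.

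The size of the treatment difference depended on single arrays. When 1 array was omitted, the log2 fold change ran from 0.025 to 1.08 for Khdc3 and from 0.18 to 1.21 for Npm2. It ran from 0.17 to 0.92 for Zar1 and from 0.092 to 0.62 for Dppa3. The lowest values were without LPS 2, or without LPS 3 for Dppa3, and the highest were without LPS 1. Without LPS 1 the log2 fold change was 1.21 for Npm2 (standard error 0.33, adjusted p = 0.196 in limma) and 1.08 for Khdc3 (standard error 0.40, adjusted p = 0.201), so that 2 of the 5 genes passed the 2-fold and unadjusted p criterion, as did 1.01% of all probes in that direction. Zar1, Padi6 and Dppa3 were then at 0.92, 0.73 and 0.62, below the 2-fold limit, with adjusted p = 0.196, 0.226 and 0.207 in limma. The unadjusted p was below 0.05 for 4 of the 5 genes, all but Padi6, as for 4.03% of all probes in that direction. No probe on the array had an adjusted p under 0.05 in that fit, while 908 passed the 2-fold and unadjusted p criterion. Padi6 turned below 0 without other arrays, to -0.29 without LPS 2, -0.093 without LPS 3 and -0.099 without saline 1, each less than its standard error. The fit without LPS 1 rests on LPS 2 and LPS 3, which are also the 2 arrays of the other slide row, and their row and treatment cannot be told apart there.

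With the slide row as a block, the comparison rests on LPS 1 against the saline arrays of its own row, and the lone LPS array is assumed to vary like the rest. All 5 genes were then below 0. Padi6 was at -1.11 (standard error 0.39, adjusted p = 0.570 in limma) and was the 1 gene of the 5 to meet the criterion, as did 0.217% of all probes in that direction. Khdc3, Npm2, Zar1 and Dppa3 were at -0.87, -0.69, -0.48 and -0.41. The sign within the row that held both treatments was therefore opposite to that over all 6 arrays. The other row held LPS arrays only and gives no comparison.

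The arrays with adrenal transcripts lay on different sides of the members' pattern, since saline 2 was among the lowest arrays and saline 3 was the highest of the saline arrays for all 6 probes. Without saline 2 and saline 3, an alternative chosen after seeing the data, the log2 fold changes were 0.55 for Padi6, 0.90 for Khdc3, 0.61 for Zar1, 1.00 for Npm2 and 0.34 for Dppa3, each against saline 1 alone, which is assumed to vary like the LPS arrays. None of the 5 genes passed the 2-fold and unadjusted p criterion, which 3.29% of all probes did in that fit. Without LPS 1 and saline 1, the arrays with the higher Foxj1 and Pax8 signal, Npm2 passed it at 1.00 (standard error 0.30, adjusted p = 0.123 in limma), as did 1.06% of all probes in that direction, with 323 probes higher and 1044 lower. The other 4 genes were between 0.52 and 0.85. In that fit the LPS arrays fill 1 slide row, while both saline arrays lie in the other row and carry adrenal transcripts, so treatment, row and adrenal transcripts cannot be told apart. This alternative was likewise chosen after seeing the data.

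Other genes of the oocyte shared the pattern in part. In 4 lists of such genes, 29 of 41 genes had a probe, and for 26 of the 29 the lowest 3 arrays were again LPS 1, saline 1 and saline 2, as for 7.61% of all probes measured on every array. The order within these 3 was not shared, since LPS 1 was the lowest array for 12 of the 29 and saline 2 for another 12, among them all 7 germ cell genes. The pattern was not confined to the oocyte. Of 8 granulosa markers with a probe, 6 had the same lowest 3 arrays, and LPS 1 was the lowest array for 6 of the 8. These counts include arrays on which a gene was dim. The log2 fold change was above 0 for 27 genes and below 0 for 2, and 0 of the 29 had an unadjusted p under 0.05 in limma or groups that did not overlap. When replicate numbers entered limma as a block, 3 of the 29 had an unadjusted p under 0.05, as 20.8% of all probes did. These were Sohlh2, Tbpl2 and Tdrd1, with adjusted p = 0.222, 0.210 and 0.192 in limma, and Tbpl2, at 1.11, then passed the 2-fold and unadjusted p criterion. Tbpl2 and Tdrd1 were named after their values were seen, and neither was well above background on LPS 1, saline 1 and saline 2.

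Among other maternal-effect and egg genes, 11 of 19 had a probe and 9 of these were positive, with a median log2 fold change of 0.38. The genes with the largest differences among those well above background throughout were Zfp57 (0.48), which maintains imprinted methylation, H1f8 (0.45), the oocyte's linker histone, and Zbed3 (0.38), a partner of the subcortical maternal complex. Nlrp4 and Nlrp4a were not well above background on LPS 1, saline 1 and saline 2, and Dnmt1 was not so on any array. All 6 genes of the zona pellucida and of oocyte-secreted growth factors were positive, with a median of 0.41, led by Bmp15 (0.75) and Zp2 (0.60), with Gdf9 at 0.43. Of the oocyte transcription factors, 5 of 8 had a probe and all 5 were positive, with a median of 0.48, and Sohlh2, Lhx8 and Nobox were at 0.76, 0.48 and 0.30. The germ cell genes gave 7 of 8 with a probe, all positive, with a median of 0.51, and Ddx4, Kit and Mael were at 0.63, 0.51 and 0.49. None of these genes passed the 2-fold and unadjusted p criterion without the block, which 1.69% of all probes did.

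Set against the zona pellucida and growth factor genes of the same array, the maternal-effect genes varied much less. After the mean log2 signal of Zp1, Zp2, Zp3, Zp4, Gdf9 and Bmp15 was subtracted on each array, a scaling chosen after seeing the data, the range over the 6 arrays was 0.43 to 0.76 for the 6 probes. Over all probes the median log2 fold change was -0.48 on this scale. Padi6 was then at 2.48, 2.90 and 2.72 on LPS 1, 2 and 3, and at 2.86, 3.24 and 2.97 on saline 1, 2 and 3. Its difference of -0.33 compared with SDs of 0.21 and 0.20 (two-sided exact permutation p = 0.2). For Khdc3, Zar1, Npm2 and Dppa3 the differences were -0.013, 0.014, 0.14 and -0.16, and the treatments overlapped for each. Padi6 overlapped too, with LPS 2 above saline 1. This scaling moved the log2 fold change of every probe measured on all 6 arrays by the same -0.44, and the signs below 0 come with that shift. Such ratios show only unequal change, since the reference genes varied too.

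Somatic markers were compared on the scale of the 75th percentile. The 7 granulosa cell markers with a signal well above background throughout, of 8 with a probe, averaged -0.94, 0.77 and 0.38 on LPS 1, 2 and 3 after centring, and -0.16, -0.39 and 0.34 on saline 1, 2 and 3. Amh, the anti-Müllerian hormone of growing follicles, Gata4 and Wt1 had log2 fold changes of -0.29, 0.37 and 0.40, and 6 of the 8 with a probe were above 0. The summed signal of the 8 of 10 granulosa markers with a probe was 24.7, 92.6 and 64.9 multiples of the 75th percentile on LPS 1, 2 and 3, and 44.4, 42.8 and 72.0 on saline 1, 2 and 3, with Inha the brightest throughout and Fshr not well above background on saline 1 and 2. The 5 maternal-effect genes together summed to 10.54, 40.9 and 32.1 on LPS 1, 2 and 3 and to 15.9, 20.1 and 28.9 on saline 1, 2 and 3. The part of the granulosa, oviduct and adrenal transcripts in the spread of the maternal-effect genes was not tested.

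Stroma and theca markers, all 8 with a probe and well above background on all arrays, averaged after centring -0.094, 0.32 and 0.25 on LPS 1, 2 and 3 and -0.023, -0.26 and -0.19 on saline 1, 2 and 3. Col1a1 was the brightest, and the sums were 104, 111 and 101 on LPS 1, 2 and 3 and 156, 82.5 and 104.6 on saline 1, 2 and 3. Of the 8, 6 were above 0 and 2 below, Nr2f2 at -0.31 and Col1a1 at -0.15, with a median of 0.25. Tcf21, a mesenchymal transcription factor, passed the 2-fold and unadjusted p criterion with 1.08, while Cyp17a1 was at 0.94 and Pdgfra at 0.36. Macrophage markers, 7 of 7 with a probe, summed to 6.27, 5.67 and 5.82 on LPS 1, 2 and 3 and 5.44, 4.75 and 4.64 on saline 1, 2 and 3, with Aif1 the brightest. Of the 7, 5 were above 0 and 2 below, Cd68 and Cd163 at -0.16 each, with a median of 0.26. The value for Cd163 rests in part on saline 1, where it was lowest and not well above background. Adgre1, Csf1r and Aif1 were at 0.81, 0.52 and 0.26. Mrc1 passed the criterion at 1.19, a value that rests in part on saline 1, its lowest array, where it was not well above background. The adrenal medulla and cortex markers had log2 fold changes below 0 for all 12 genes with a probe, at -3.34 for Pnmt, -2.15 for Th, -4.65 for Cyp21a1 and -4.04 for Mrap. Dbh had a log2 signal of 3.19 and 2.44 on saline 2 and 3 and of at most -4.54 elsewhere, where it exceeded background clearly on LPS 3 alone, so no size is given for its difference. Chga, Chgb and Mc2r, dim on all LPS arrays, were at least 15.6-fold, 71.8-fold and 12.1-fold lower. These bounds set the saline mean against, on each LPS array, the gene's own signal or the dimmest one judged well above background, whichever was higher, and they rest on saline 2 and 3, with saline 1, dim for all 3 genes, taken as measured (adjusted p = 0.279, 0.282 and 0.276 in limma).

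**Figure D2:**
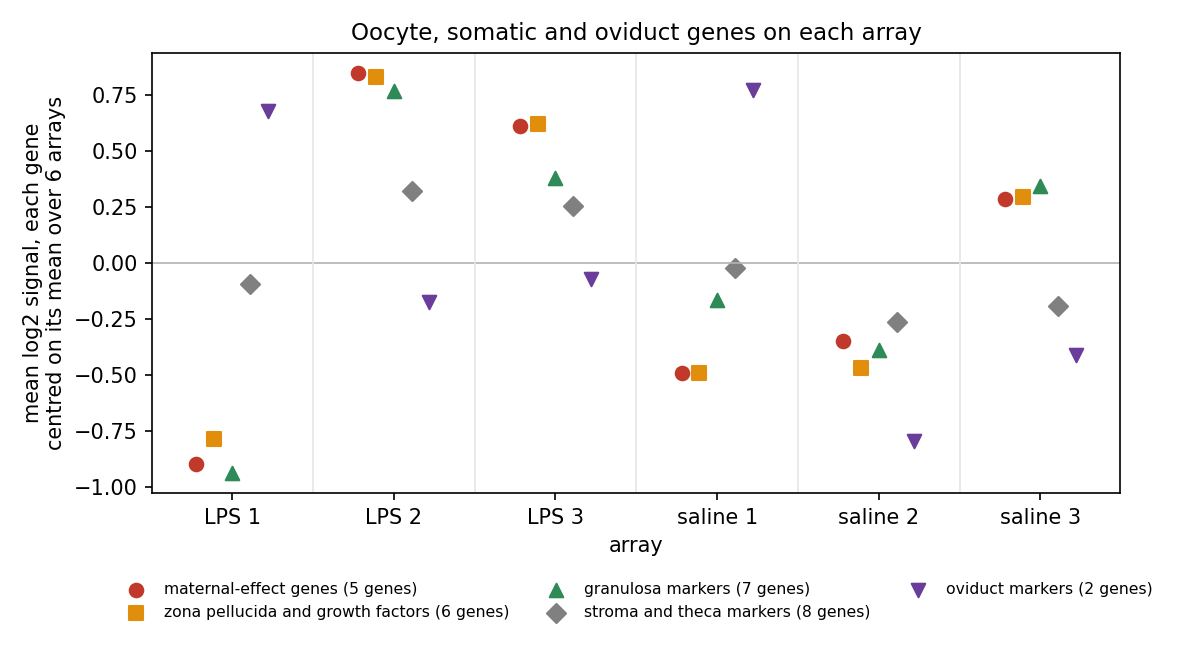
Mean log2 signal of gene lists on each array (y axis, each gene centred on its mean over the 6 arrays; x axis, arrays), with 1 point per list and array for genes well above background on all arrays. Maternal-effect genes sit at -0.90 on LPS 1 and 0.85 on LPS 2. Near them are the zona pellucida and growth factor genes at -0.79 and 0.83 and the somatic granulosa markers at -0.94 and 0.77. Stroma and theca markers are at -0.094 and 0.32, and the oviduct markers at 0.68 and -0.17.

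The genes most like the maternal-effect genes over the 6 arrays were sought among 10007 other genes with a probe well above background on every array, by Pearson's r with the average of the 5 centred genes. Among the closest 10 were Gdf9, Hsd17b1, Oas1d, Mos, Tmem184a, H1f8, Lrrc20, Astl and Zp4, with r from 0.994 for Zp4 to 0.998 for Gdf9. These 6 points share their scaling and the spread of the arrays, so r is given as a description. Gdf9, the growth factor by which the oocyte acts on granulosa cells, had a log2 signal of 0.42, 2.55 and 2.33 on LPS 1, 2 and 3, and of 0.90, 1.12 and 1.99 on saline 1, 2 and 3. Astl encodes the egg protease ovastacin, Mos the kinase that holds the mature egg in meiosis, and Hsd17b1 an estrogen-forming enzyme of granulosa cells. These genes had LPS 2 as their highest and LPS 1 as their lowest array, and their log2 fold changes lay between 0.17 for Lrrc20 and 0.48 for Oas1d.

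The stretch before the transcription start is shown for the 4 of the 5 genes found in the promoter table (RefSeq, GRCr8). Whether these genes share transcriptional control was not tested. Each sequence holds the 250 bases before the start, 5′ to 3′ on the strand of the gene, with matches to the E-box CANNTG in capitals. This motif reads the same on both strands and is the one bound by basic helix-loop-helix factors such as Figla, a regulator of zona pellucida genes. Padi6 lies on the minus strand at chr5:158320509-158320758, Khdc3 on the plus strand at chr8:82722730-82722979, Zar1 on the minus strand at chr14:35551404-35551653 and Dppa3 on the plus strand at chr4:157523176-157523425.
Padi6: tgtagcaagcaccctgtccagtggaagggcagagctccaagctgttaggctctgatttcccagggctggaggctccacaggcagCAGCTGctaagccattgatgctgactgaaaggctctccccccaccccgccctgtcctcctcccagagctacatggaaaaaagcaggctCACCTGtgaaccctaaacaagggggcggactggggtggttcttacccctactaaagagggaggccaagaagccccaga
Khdc3: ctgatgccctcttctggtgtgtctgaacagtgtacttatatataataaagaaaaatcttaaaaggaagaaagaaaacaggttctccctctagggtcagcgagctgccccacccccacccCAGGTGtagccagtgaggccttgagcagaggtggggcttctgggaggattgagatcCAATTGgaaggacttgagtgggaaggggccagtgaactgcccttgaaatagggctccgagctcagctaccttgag
Zar1: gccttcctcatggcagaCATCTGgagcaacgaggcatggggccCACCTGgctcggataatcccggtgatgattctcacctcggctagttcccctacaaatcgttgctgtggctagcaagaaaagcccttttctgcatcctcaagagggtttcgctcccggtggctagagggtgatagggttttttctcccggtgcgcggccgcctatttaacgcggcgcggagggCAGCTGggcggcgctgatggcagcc
Dppa3: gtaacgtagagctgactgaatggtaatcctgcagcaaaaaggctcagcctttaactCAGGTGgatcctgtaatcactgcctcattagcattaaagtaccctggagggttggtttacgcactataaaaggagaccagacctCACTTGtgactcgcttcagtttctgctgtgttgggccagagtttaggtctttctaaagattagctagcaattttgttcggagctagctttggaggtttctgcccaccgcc
The stretch held 2 matches in Padi6, Khdc3 and Dppa3 and 3 in Zar1. Of 33469 promoter stretches of the same length, 65.5% held at least 1 match, so a match is common. The homeobox motif TAATTG, searched on both strands, was in none of the 4 and in 7.31% of all, and TATAAA was in Dppa3 alone and in 12.9% of all. The 4 stretches differed in base composition, with 17 CG dinucleotides in Zar1, 5 in Dppa3 and 2 in Padi6 and in Khdc3, against a median of 5 over all promoters. Matches are descriptions of these letters and not sites of binding.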

How the data were processed

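RNA from PND 7 ovaries was measured on 6 arrays, 3 per treatment, grouped by the labels. The authors deposited the spot intensity values of Agilent Feature Extraction 10.5.1.1, in which background is already subtracted, with quality flags, and a table of linear intensity values that match the scanner's processed signals to within 0.497% and are neither centred nor scaled (medians of 870, 1020 and 1370 for LPS 1 to 3 and 582, 1130 and 791 for saline 1 to 3). The submitters' processing notes name lumi, without a version. Control spots and outlier spots were dropped, replicate spots were averaged on the log2 scale, and each array was scaled to its own 75th percentile. A probe needed at least 2 arrays per treatment. LPS was compared with saline over 30367 probes by limma (version 3.58.1, R version 4.3.3, with lmFit, eBayes and Benjamini-Hochberg adjustment). Single genes were also compared by a two-sided exact permutation test.

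Probes were named by RefSeq accession with a table of the GRCr8 assembly, which gave a symbol to 17998 probes. The brightest probe on average stood for a gene that had more than 1. The members and lists were chosen with earlier results of these data known. Named from each list are up to 3 genes with the largest absolute difference among those well above background on all 6 arrays, and those whose groups did not overlap at a 2-fold difference. Genes named for likeness are among the 10 with the highest r with the mean of the members, and 1 of the 10 is not reported here.

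Deviations from the treatment means correlated over the probes at 0.298, 0.215 and 0.254 between samples that share a replicate number. Samples of unlike number were not compared in this way, and whether the numbers pair the arrays is not known. The main fit did not pair them, and a fit with the replicate numbers as a block was 1 of the alternatives. Over probes well above background on all arrays, LPS 2 correlated at 0.980 with saline 3 and at 0.972 with saline 2. LPS 1 correlated most, among the saline arrays, with saline 1 (0.988), and LPS 3 with saline 3 (0.975). The 20 alternatives covered background correction, scaling, filters, flags, the methods' t-test (the analysis of variance that the study names for its data in general, and not for the arrays, on 2 groups), slide row, replicate block, choice of probe and arrays left out, and 3 of them were added after seeing the data. The number of arrays limits the precision.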

Additional observations from a re-analysis of the deposited data

How the results depend on the processing

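The maternal-effect genes passing the 2-fold and unadjusted p criterion numbered 0 under normexp background correction, quantile normalization, no scaling, a percentile over bright probes, the deposited table, a filter on dim probes, flagged spots kept, the methods' t-test and the mean of all probes. The number was 1 with the slide row as a block, 1 without LPS 1 and saline 1, and 0 to 2 in the fits that omit 1 array. The median log2 fold change over the 5 genes was 0.43, became -0.69 with the slide row as a block, and was 0.12 to 0.92 in the fits that omit 1 array. Without scaling it was 0.80, where the median over all probes was 0.34. With the slide row as a block the log2 fold changes were -1.11 for Padi6, -0.87 for Khdc3, -0.69 for Npm2, -0.48 for Zar1 and -0.41 for Dppa3. Padi6 also turned to -0.29 without LPS 2, -0.093 without LPS 3 and -0.099 without saline 1, and was at most 0.73 when 1 array was omitted. Scaled to the zona pellucida and growth factor genes, Padi6, Khdc3 and Dppa3 were at -0.33, -0.013 and -0.16, since this scaling moved every probe measured on all 6 arrays by the same -0.44. For the other changes the cause was not tested.

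The 513 probes became 282 (2 higher) with normexp, 291 with quantile normalization, 1230 (1003 higher) without scaling, 312 of 20445 after the filter on dim probes, 148 (100 higher) with the methods' t-test, 1555 (1489 higher) with the slide row as a block, and 250 to 1131 in the fits that omit 1 array. The main split was 186 higher and 327 lower. None of these settings gave an adjusted p under 0.05 in limma to any of the 5 genes. With the replicate block 628 probes passed, 459 of them among the 513, and 0 of the 5 genes did. The log2 fold changes of the 5 genes were unchanged by this block. Their standard errors became smaller, from 0.27 for Dppa3 to 0.40 for Khdc3, with 0.37 for Npm2. Among the genes named from the lists the block changed the call of Tbpl2 alone. Signal over background did not limit the 5 genes, which were well above background on all 6 arrays.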
